A study of Mus musculus with 8 samples.

Results

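Lncenc1, Platr3, Platr4, Platr10, Platr14, Platr16, Platr20, Platr22 and Platr27 are long noncoding RNAs transcribed in mouse embryonic stem cells. The 9 genes were taken by symbol, matched to the count tables by Ensembl identifier without its version suffix, and kept where at least 2 of the 8 libraries held 10 or more counts. All 9 met this rule, each with 10 or more counts in all 8 libraries. They are 9 of 43346 genes listed in the tables and 9 of the 18055 genes that passed the filter on low counts. Altogether 31 genes carry a Platr or Lncenc1 symbol, and 28 of them passed that filter. The levels of the 9 ran from 31 counts, for Platr3 in 1 library, to 9852 counts, for Platr10 in another.

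The name Platr stands for pluripotency-associated transcript, and was given to noncoding RNAs that embryonic stem cells make and lose as they differentiate. Lncenc1 is reported to act with the RNA-binding proteins PTBP1 and HNRNPK on glycolysis genes of naive cells, the ground state closest to the early epiblast. Platr22 is reported to act on Zfp281 with DDX5 and HNRNPL, Platr10 on the gene for OCT4 (Pou5f1), and Platr4 with TEAD4 in the mesoderm lineage. TRIM71 is an RNA-binding protein of stem cells and early embryos that represses messenger RNAs through sites in their 3′ untranslated regions. MBNL1 is a splicing factor whose rise accompanies differentiation.

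Total RNA was sequenced with a stranded protocol in 75 nt paired-end reads from 4 groups of 2 libraries. All cells came from a 129xC57BL/6 embryonic stem cell line with the genotype Rosa26Cre-ERT2/BirA-V5, which is the wild type here and was kept on gelatin-coated dishes in serum and LIF. The TRIM71 knockout carried TRIM71-/- in addition, and the Mbnl1 3'UTR mutant carried altered 3′ untranslated regions on both Mbnl1 alleles (3'UTR(mut)/3'UTR(mut)). The Mbnl1 overexpression line carried a stable transfection of MBNL1::T2A::Puromycin, in which MBNL1 and puromycin resistance are read from 1 transcript; its promoter is not given in the sources used here. The labels do not say whether a line is 1 clone or whether the libraries of a group came from separate cultures. The p-values therefore measure the spread between these libraries, and a difference between clones cannot be told apart from one between genotypes. The 3 comparisons with wild type share the same 2 wild-type libraries, so their values are set side by side below and are not counted as independent.

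Total counts ranged from 75056306 to 86508533 per library, and log levels correlated at 0.9954 to 0.9965 within groups and at 0.9768 to 0.9934 between groups. The altered genes were read first. Trim71 stood at 630 and 628 normalized counts (CPM, scaled to library size) in the wild-type libraries, 101 and 105 in the knockout libraries, 695 and 694 in those of the mutant and 644 and 667 in those of overexpression. The labels do not say which part of Trim71 was deleted. Mbnl1 stood at 25.9 and 26.1 CPM in wild type, 48.8 and 50.9 in the knockout libraries, 28.6 and 27.4 in those of the mutant and 193 and 195 in those of overexpression. Mbnl1 was thus 1.92-fold higher in the knockout and 7.45-fold higher in overexpression than in wild type, while in the mutant its log2 change of 0.11 did not pass (edgeR adjusted p = 0.086, and 0.0428 without mutant replicate 2). The 6 markers of embryonic stem cells summed to 3071 to 3087 CPM in wild type and to 3459 to 3846 CPM in the other lines. Neural markers (6 of 6 tested) summed to 208 to 209 CPM in wild type and 143 to 164 in the other lines. Fibroblast markers (5 of 8 tested) summed to 65.1 to 69.3 CPM in wild type and 77.1 to 96.0 in the other lines. Most of that sum was Vim, at 61.2 to 88.9 CPM over the libraries, and the defining fibroblast genes Dcn and Lum had no more than 2 counts. Of 7 markers of 2-cell-like cells none passed the filter, and Zfp352, Tcstv1 and Tcstv3 were at 0 in all libraries. The part of such cells in the levels given below was not tested. In bulk RNA, fewer cells of a kind and less RNA per cell cannot be told apart.

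Most of the 9 RNAs were lower in the altered lines. A gene was called where its Benjamini-Hochberg adjusted p over the 18055 genes was under 0.05 in edgeR's quasi-likelihood test. In the knockout 7 of the 9 were lower than in wild type, 1 was higher (Platr3) and 1 did not pass (Platr4), while 45.1% of all tested genes were called there, 20.9% lower and 24.2% higher. In the mutant 5 of the 9 were lower and 4 did not pass, where 16% of all tested genes were called, 7.69% lower and 8.32% higher. In overexpression 8 were lower and 1 was higher (Platr27), where 54.8% of all tested genes were called, 27.2% lower and 27.7% higher. The median log2 change of the 9 was -0.44 in the knockout, -0.28 in the 3'UTR mutant and -0.67 in overexpression. The median over all tested genes lay at -0.0051, -0.00625 and -0.0104, and that over 19 other tested Platr genes at -0.05, 0.06 and -0.15. Because the 9 were chosen with earlier results of these data known, their counts and medians describe the chosen set and are not an independent comparison. Lncenc1, Platr10, Platr14 and Platr20 were lower in all 3 lines. The mutant call of Platr10 was lost under 6 of 15 alternatives and the knockout call of Platr20 under 3.

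**Figure D1:**
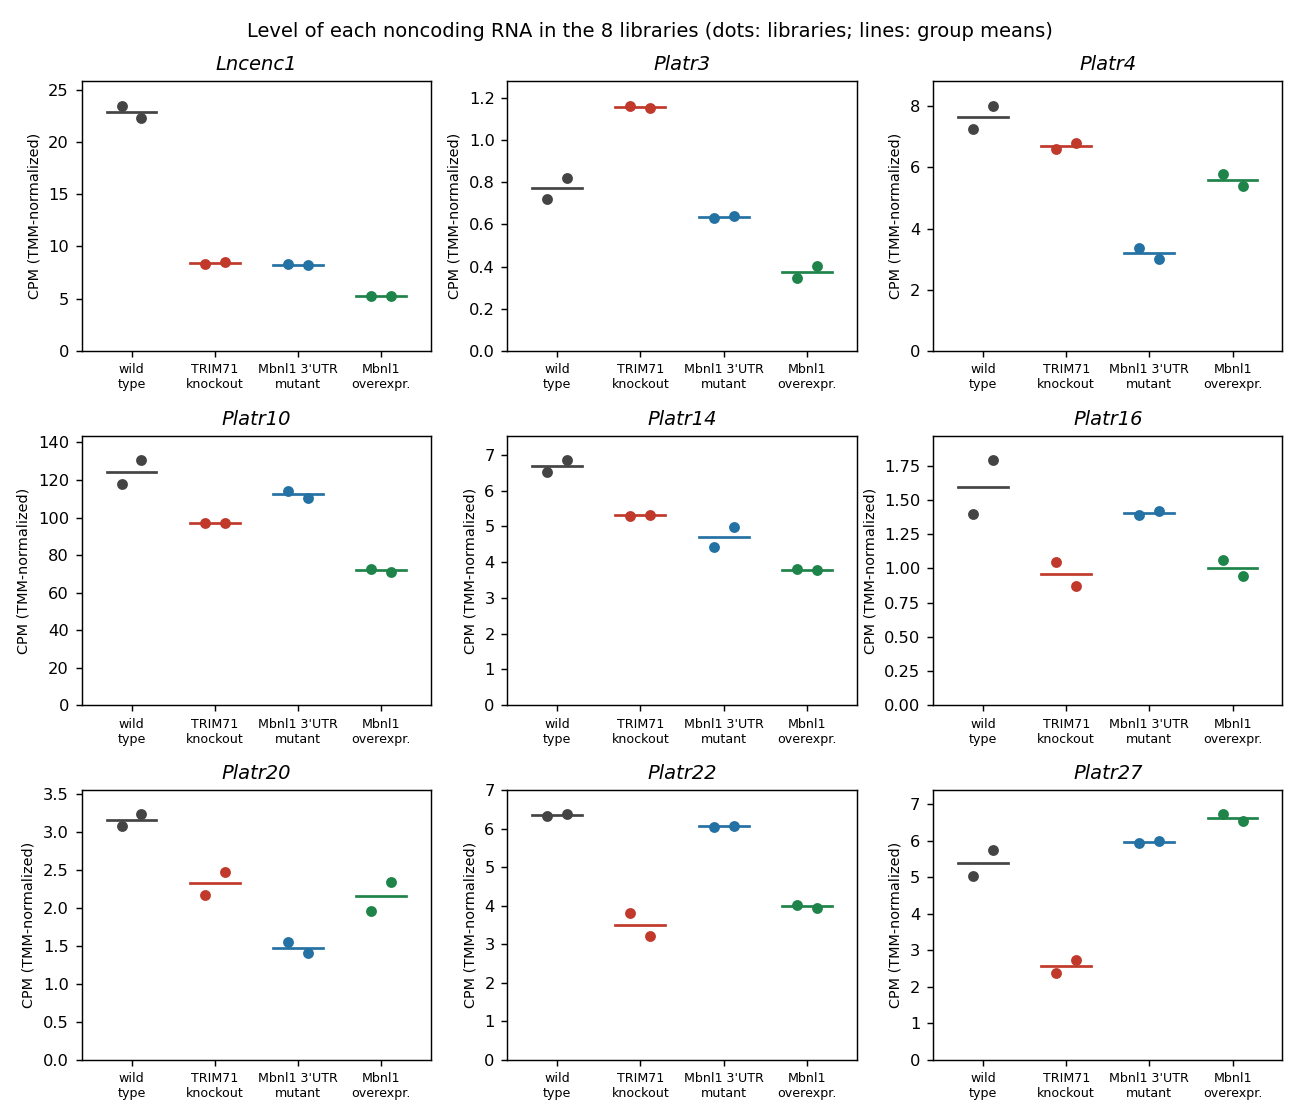
TMM-normalized CPM (vertical axis, from 0) of each of the 9 noncoding RNAs in the 8 libraries, with 1 dot per library and a line at the mean of each group of 2. Lncenc1 drops from above 22 CPM in both wild-type libraries to under 9 CPM in the 6 others, Platr4 and Platr20 are lowest in the mutant, and Platr27 is lowest in the knockout.

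Per length, Platr10 was by far the most abundant of the 9. Its wild-type mean was 71.3 CPM per kb of exon, followed by Platr27 at 8.58, Lncenc1 at 6.94, Platr14 at 4.24, Platr22 at 3.92, Platr4 at 2.99, Platr20 at 2.93, Platr16 at 2.39 and Platr3 at 1.87. Highest and lowest thus differed 38-fold on the CPM per kb scale. Platr4 and Platr20 were neighbours in this order whose libraries overlapped, at 2.84 and 3.14 CPM per kb against 2.85 and 2.999. Exon lengths came from GENCODE M21, whose gene versions differ from those in the files for Lncenc1, Platr4, Platr14, Platr16 and Platr20, so the order per length may shift with the gene model.

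**Figure D2:**
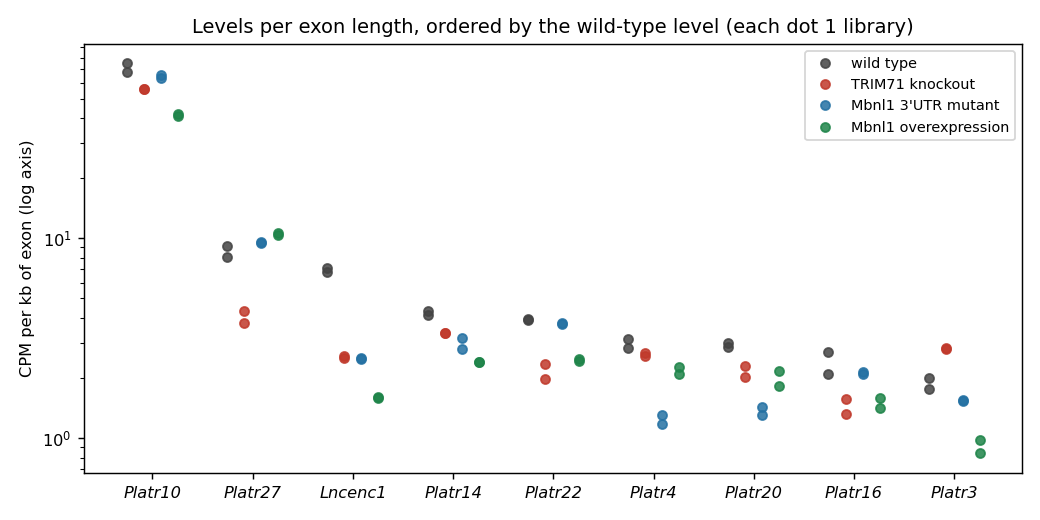
CPM per kb of exon on a log axis for each of the 9 RNAs, ordered by the wild-type mean, with 1 dot per library coloured by group. Platr10 stands at 40.8 or above in all libraries, while the other 8 lie at or below 10.7.

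**Figure D3:**
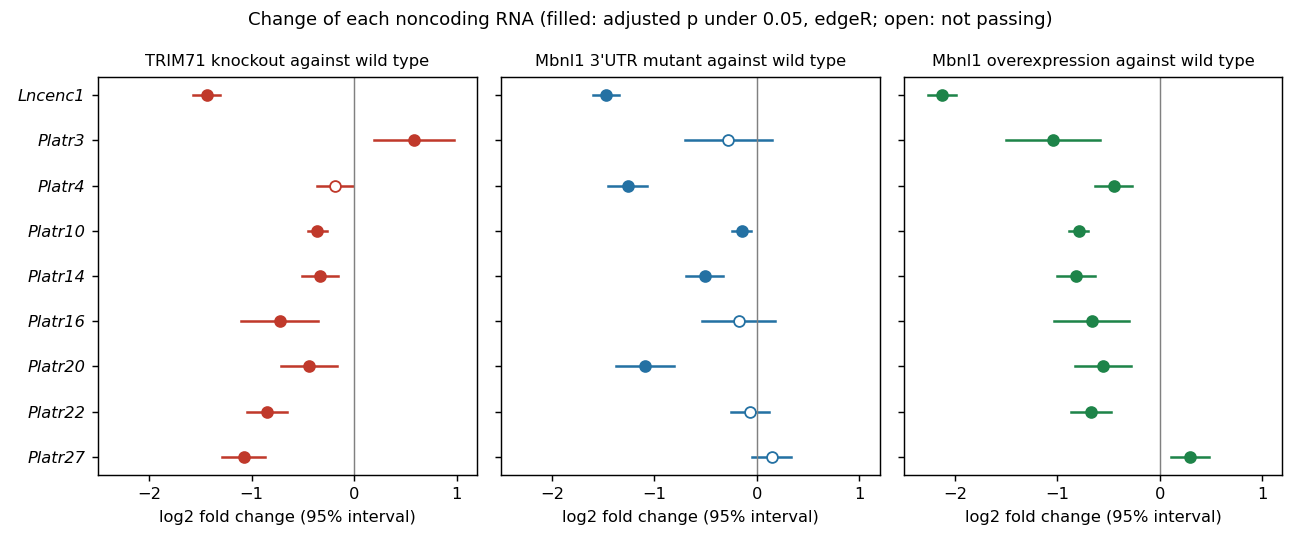
Log2 fold change of each RNA against wild type (horizontal axis) with its 95% interval from the edgeR fit, in 1 panel per line. Filled circles passed at an adjusted p under 0.05, and the largest fall was that of Lncenc1 in overexpression, at -2.13.

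Lncenc1 fell more than any other of the 9 in all 3 lines. The gene lies at chr13:97434970-97497007 (ENSMUSG00000078952.5) on the plus strand of mm10 and is annotated as a long intergenic RNA with 3301 bases of exon in 6 blocks. The 20 bases before its start and the first 10 transcribed bases, in capitals, are printed because RefSeq (GRCm38.p6) and GENCODE place its start at the same base, chr13:97434950-97434979.
Lncenc1: tttgaaaggatggagtagatTTCATTTTCT
The wild-type libraries held 23.5 and 22.3 CPM (1854 and 1684 counts), the knockout libraries 8.35 and 8.54, the mutant libraries 8.29 and 8.21 and the overexpression libraries 5.28 and 5.23. The 4 groups fell into 3 levels, with wild type on top, the knockout and the mutant together in the middle and overexpression at the bottom, and no altered library came near the wild type. Against wild type, Lncenc1 was 2.71-fold lower in the knockout (log2 change -1.44, SE 0.0595, adjusted p = 5.03e-12). It was 2.78-fold lower in the mutant (-1.47, SE 0.0597, adjusted p = 2.58e-11). In overexpression it was 4.36-fold lower (-2.13, SE 0.0625, adjusted p = 2.15e-14). The mutant and the knockout did not differ beyond their spread, with a log2 difference of 0.03 (95% interval -0.101 to 0.167). Overexpression was below both, by a log2 difference of -0.65 from the mutant (adjusted p = 2.75e-07), and the knockout was above overexpression by 0.68 (adjusted p = 1.05e-07). No alternative processing changed these calls.

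The genes whose levels followed Lncenc1 most closely over the 8 libraries were Plac8 (Pearson r = 0.9964), Galnt7, an enzyme that starts mucin-type O-glycosylation (0.9903), and Plekhf2 (0.9807). These and the later correlations of this kind are descriptions over 8 libraries that share 4 groups, chosen as the 3 highest among 10875 genes for each RNA. They do not measure the size of a change, so a gene with a high r may have changed far less than the RNA. Plac8 had log2 changes of -1.99 in the knockout, -1.97 in the 3'UTR mutant and -3.06 in overexpression. No protein-coding gene lies within 100 kb of Lncenc1. Enc1, a coding gene 182 kb away that was looked up outside the naming rule with its values known, was lower in the knockout (-0.32), higher in the mutant (0.29) and did not pass in overexpression (-0.06).

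Platr10, the most abundant of the set, was lower in all 3 lines, by small amounts in the knockout and the mutant. It lies at chr3:75647446-75655731 (ENSMUSG00000099370.1) on the minus strand, in 3 exon blocks of 1745 bases. Its start is the same in RefSeq and GENCODE, and the region just before it holds a SOX-type motif, ATTGTT, whose first base lies 54 bases before the start. The 30 bases around the start (chr3:75655722-75655751, transcribed bases in capitals) and around the motif (chr3:75655768-75655797, motif in capitals) are given on the transcribed strand.
Platr10 start: ggagtctgcctagctattctGGAGCCTACA
Platr10 motif: ctggatcactctATTGTTctgcctctgcca
Wild-type libraries held 118 and 131 CPM, knockout libraries 97.2 and 96.9, mutant libraries 114 and 110.2 and overexpression libraries 72.8 and 71.2. Overexpression was lowest without overlap, and the mutant lay just under the lower wild-type library. The log2 change was -0.79 in overexpression (1.73-fold lower, SE 0.0437, adjusted p = 6.93e-11) and -0.36 in the knockout (1.28-fold lower, SE 0.0433, adjusted p = 2.81e-06). In the mutant the log2 change was -0.15 (1.11-fold lower, SE 0.0431, adjusted p = 0.0263). That call for the mutant was lost under 6 of 15 alternatives, among them DESeq2 (adjusted p = 0.0582), the fit of the 2 groups alone (0.0973) and the fit without wild-type replicate 2 (-0.07, adjusted p = 0.328). It was also lost without mutant replicate 2 (adjusted p = 0.0999) and without knockout replicate 1 (0.0547) or 2 (0.0511).

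Serpini1, which encodes the protease inhibitor neuroserpin, lies 3.95 kb from Platr10 on the opposite strand and is its nearest coding gene. Its libraries held 13.7 and 12.8 CPM in wild type, 5.35 and 5.68 in the knockout libraries, 11.9 and 11.5 in those of the mutant and 6.83 and 7.14 in those of overexpression. Serpini1 thus fell with Platr10 in the knockout (log2 change -1.26) and in overexpression (-0.92), and its change of -0.18 in the mutant did not pass (adjusted p = 0.0681). The genes closest to Platr10 in level across libraries were Chek2, a checkpoint kinase (r = 0.994), Lpar4, a lysophosphatidic acid receptor (0.9938), and G2e3 (0.9928). Lpar4 had log2 changes of -1.34 in the knockout, -0.70 in the 3'UTR mutant and -2.90 in overexpression.

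Platr22 was lower in the knockout and in overexpression and stayed near the wild-type level in the mutant. It lies at chr1:136696211-136726142 (ENSMUSG00000097448.1) on the plus strand, in 5 exon blocks of 1617 bases. The start, again shared by both annotations, and a SOX-type motif just inside the gene are printed; the motif reads ACAAAG on the opposite strand and so appears as CTTTGT (in capitals), at chr1:136696228-136696257.
Platr22 start: gttccgaggaatcagtttggGAATGTGGCT
Platr22 motif: tggccgtttcctCTTTGTttagttagcgat
Wild-type libraries held 6.32 and 6.37 CPM, knockout libraries 3.81 and 3.21, mutant libraries 6.05 and 6.07 and overexpression libraries 4.03 and 3.95. All 4 libraries of the knockout and of overexpression lay below the 4 of wild type and mutant. Platr22 was 1.81-fold lower in the knockout (log2 change -0.85, SE 0.0928, adjusted p = 8.15e-07) and 1.59-fold lower in overexpression (-0.67, SE 0.0909, adjusted p = 6.48e-06). In the mutant the log2 change was -0.07 (95% interval -0.251 to 0.119, adjusted p = 0.69).

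Zfp281, the transcription factor gene on which Platr22 is reported to act, is also its nearest coding gene, 66.2 kb away on the same strand. Its log2 change was 0.04 in the knockout and 0.08 in the mutant, neither of which passed, and it was lower in overexpression (-0.19, adjusted p = 3e-04); without mutant replicate 2 the mutant change passed (0.13, adjusted p = 0.0139). The genes closest to Platr22 across libraries were Zfp534 (r = 0.9942), Zfp934 (0.9927), both zinc finger genes, and the centrosomal gene Cep63 (0.9888). Zfp534 had log2 changes of -1.25 in the knockout and -1.09 in overexpression.

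Platr4 and Platr20 shared another pattern, with their lowest level in the mutant. Platr4 lies at chr3:41484024-41493192 (ENSMUSG00000097639.1) on the minus strand, in 3 exon blocks of 2553 bases. Platr4 held 7.25 and 8.02 CPM in wild type, 6.60 and 6.80 in the knockout libraries, 3.35 and 3.02 in those of the mutant and 5.80 and 5.38 in those of overexpression. Both mutant libraries lay below all 6 others. Platr4 was 2.40-fold lower in the mutant than in wild type (log2 change -1.26, SE 0.0903, adjusted p = 3.33e-08) and 1.37-fold lower in overexpression (-0.45, SE 0.0839, adjusted p = 0.000192). In the knockout its log2 change of -0.19 did not pass (95% interval -0.362 to -0.0128, adjusted p = 0.0753), except without wild-type replicate 1, where it did (-0.26, adjusted p = 0.0476). Its nearest coding gene is Jade1, 62.5 kb away, which encodes a subunit of a histone acetyltransferase complex. Jade1 changed by -0.24 in the knockout and by 0.18 in the mutant on the log2 scale, and its change of -0.06 in overexpression did not pass.

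Platr20 lies at chr11:51189833-51220418 (ENSMUSG00000086646.3) on the minus strand, in 6 exon blocks of 1079 bases. Its start is printed because another gene, Gm12569, begins only 55 bp away on the opposite strand; the window is chr11:51220409-51220438 with transcribed bases in capitals.
Platr20: ctgggaaagagagacgggcgGGAGATTTGC
Platr20 held 3.08 and 3.24 CPM in wild type, 2.18 and 2.48 in the knockout libraries, 1.55 and 1.41 in those of the mutant and 1.96 and 2.35 in those of overexpression. Both mutant libraries were lowest, and the knockout and overexpression libraries overlapped each other between the mutant and wild type. The log2 change was -1.09 in the mutant (2.14-fold lower, SE 0.136, adjusted p = 1.99e-05), -0.55 in overexpression (SE 0.129, adjusted p = 0.00146) and -0.44 in the knockout (SE 0.128, adjusted p = 0.00962). The knockout call was lost with DESeq2 (adjusted p = 0.0573), without wild-type replicate 2 (0.0557) and without knockout replicate 1 (-0.34, adjusted p = 0.119). Gm12569 was lower in the same 3 lines, with 2.13 and 1.67 CPM in wild type, 1.46 and 1.35 in the knockout libraries, 1.12 and 0.958 in those of the mutant and 1.04 and 1.20 in those of overexpression. Its log2 changes were -0.44, -0.87 and -0.77 in that order. The knockout call of Gm12569 was lost with DESeq2 and without wild-type replicate 1 (-0.25, adjusted p = 0.35) or knockout replicate 1 (0.0946) or 2 (0.19).

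Mark3, a microtubule-affinity kinase gene, was among the 3 genes closest to both Platr4 (r = 0.9695) and Platr20 (0.9753). Platr4 was followed most closely by the zinc finger gene Repin1 (0.9832) and by Inpp5d, the gene of the lipid phosphatase SHIP1 (0.9738), and Platr20 next by Brox (0.9574) and Etfbkmt (0.9561). In the mutant the log2 changes were -0.76 for Repin1 and -0.47 for Inpp5d. Beside the mutant values stand marker sums that moved in the same libraries. Primitive endoderm markers (8 of 8 tested) summed to 428 and 545 CPM there against 325 to 332 in wild type. Trophoblast markers (6 of 7 tested) summed to 46.5 and 54.2 against 91.2 to 92.2. In the knockout and overexpression the first sum was 355.5 to 357 and 375 to 393 CPM, and the second 80.0 to 82.3 and 73.7 to 73.9. Most of the primitive endoderm sum was Lama1 (113 to 290 CPM over the libraries) and Col4a1 (92.4 to 221). Gata4, Gata6 and Sox17 reached at most 13.0, 6.68 and 3.26 CPM. Elf5, a defining trophoblast gene, never exceeded 4 counts in any library. The part of other cell types in the levels of Platr4 and Platr20 was not tested.

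Platr14 was lower in all 3 lines. It lies at chr2:104559163-104571429 (ENSMUSG00000086454.3) on the plus strand and is annotated as a processed transcript of 5 exon blocks and 1579 bases. RefSeq places its start at another base than GENCODE, and in the RefSeq promoter both SOX-type motifs searched, ATTGTT and ACAAAG, occurred, 124 and 12 bases before that start. The windows are chr2:104559323-104559352 and chr2:104559435-104559464, with the motifs in capitals. Both lie inside the GENCODE gene given above, after its first base.
Platr14 first motif: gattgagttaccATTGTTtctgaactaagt
Platr14 second motif: taaatgtgcaacACAAAGgttgtgggggat
Wild-type libraries held 6.52 and 6.86 CPM, knockout libraries 5.30 and 5.32, mutant libraries 4.43 and 4.98 and overexpression libraries 3.80 and 3.79. No 2 groups overlapped, but the difference of 0.17 between the knockout and the mutant did not pass. The call of overexpression against the mutant was lost without mutant replicate 2. The log2 change was -0.33 in the knockout (1.26-fold lower, SE 0.0844, adjusted p = 0.00363), -0.51 in the mutant (1.42-fold lower, SE 0.0856, adjusted p = 0.000433) and -0.82 in overexpression (1.76-fold lower, SE 0.0871, adjusted p = 3.51e-07). On either side of Platr14, Cstf3, a cleavage stimulation factor gene 19.1 kb away on the same strand, was higher in overexpression (0.20) and did not pass elsewhere, and Hipk3, a kinase gene 64.7 kb away, was lower in the knockout (-0.37) and higher in overexpression (0.63). Arl4c (r = 0.9797), Mgmt, which encodes a DNA repair methyltransferase (0.9786), and Gtdc1 (0.977) followed Platr14 most closely.

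Platr16 was lower in the knockout and in overexpression, at counts of 72 to 135 per library. It lies at chr4:145410245-145449756 (ENSMUSG00000085101.3) on the plus strand, in 4 exon blocks of 665 bases, of which 290 bases are shared with Gm13230 on the same strand, so its reads may be assigned to either gene. Its libraries held 1.39 and 1.79 CPM in wild type, 1.05 and 0.874 in the knockout libraries, 1.39 and 1.42 in those of the mutant and 1.06 and 0.944 in those of overexpression. The knockout and overexpression libraries overlapped each other and lay below the rest, and the mutant overlapped wild type. The log2 change was -0.72 in the knockout (1.65-fold lower, SE 0.177, adjusted p = 0.0028), -0.66 in overexpression (1.59-fold lower, SE 0.175, adjusted p = 0.00361) and -0.18 in the mutant, which did not pass (95% interval -0.535 to 0.177). Both calls rested on wild-type replicate 2: without it the change was -0.53 in the knockout (adjusted p = 0.0537) and -0.47 in overexpression (0.0682). Gm13230 itself, looked up for the shared exon, changed by -0.35 in the knockout and by -0.51 in overexpression, and its change of 0.07 in the mutant did not pass. Its knockout call was lost without wild-type replicate 2 (adjusted p = 0.0533).

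Of the coding genes on either side of Platr16, the zinc finger gene Zfp990, 61 kb away on the same strand, was lower in the knockout (-0.53) and in overexpression (-0.65), and in the mutant passed without mutant replicate 1 alone (-0.18, adjusted p = 0.00213). Tnfrsf8, the CD30 receptor gene 95.1 kb away on the other strand, was higher in the knockout (0.66) and in overexpression (1.11). The knockout call of Tnfrsf8 was lost without wild-type replicate 2 (0.38, adjusted p = 0.156) and without knockout replicate 1 (0.0517). Cnih4 (r = 0.988), Mtx3 (0.9772) and Zfp655 (0.9764) followed Platr16 most closely over the libraries.

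Platr27 was lower in the knockout than in each of the other groups. It is a short gene of 2 exon blocks and 629 bases at chr2:157595583-157597320 (ENSMUSG00000087547.1) on the minus strand. Its libraries held 5.04 and 5.76 CPM in wild type, 2.38 and 2.73 in the knockout libraries, 5.94 and 6.00 in those of the mutant and 6.71 and 6.53 in those of overexpression. Both knockout libraries lay below all 6 others, and both overexpression libraries above them. Platr27 was 2.11-fold lower in the knockout (log2 change -1.08, SE 0.0999, adjusted p = 1.12e-07) and 1.23-fold higher in overexpression (0.30, SE 0.0893, adjusted p = 0.00937). Its log2 change of 0.15 in the mutant did not pass (95% interval -0.0454 to 0.337). The call in overexpression was lost without wild-type replicate 1 (0.20, adjusted p = 0.119) and without overexpression replicate 1 (0.0546).

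Blcap, a coding gene 24.3 kb from Platr27 on the same strand, was lower in the knockout (-0.16) and higher in overexpression (0.38), and did not change beyond the threshold in the mutant (-0.01). Its knockout call was lost without knockout replicate 2 (adjusted p = 0.104). Nnat, the imprinted neuronatin gene 33.1 kb away, was looked up with its values known and lies outside the naming rule. Nnat was 5.74-fold lower in the knockout (7.10 CPM in wild type against 1.24, log2 change -2.52, adjusted p = 1.74e-11), with changes of -0.16 in the mutant and 0.04 in overexpression that did not pass. Bnip2 (r = 0.9958), the kinesin gene Kifc3 (0.9944) and Syde2 (0.9943) were closest to Platr27 over the libraries. Kifc3 had log2 changes of -0.90 in the knockout and 0.26 in overexpression, and Bnip2 smaller ones of -0.16 and 0.05.

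Platr3 had the fewest reads and was the single RNA of the 9 that was higher in the knockout. It lies at chr2:135648907-135652063 (ENSMUSG00000084762.1) on the plus strand, in 4 exon blocks of 412 bases, and RefSeq places its start outside this GENCODE model. The wild-type libraries held 57 and 62 counts of it, with 100 and 95 in the knockout libraries, 52 and 53 in those of the mutant and 31 and 35 in those of overexpression, or 0.722 and 0.822, 1.16 and 1.15, 0.629 and 0.643, and 0.346 and 0.403 CPM. The groups did not overlap, with the knockout on top and overexpression at the bottom. Platr3 was 1.50-fold higher in the knockout (log2 change 0.59, SE 0.185, adjusted p = 0.0155) and 2.06-fold lower in overexpression (-1.04, SE 0.219, adjusted p = 0.000584). Its change of -0.28 in the mutant did not pass (95% interval -0.706 to 0.148). The knockout call was lost with DESeq2 (adjusted p = 0.132), without wild-type replicate 1 (0.50, adjusted p = 0.109) and without knockout replicate 1 (0.0711) or 2 (0.0656).

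Plcb4, a phospholipase C gene that begins 6.95 kb from Platr3 on the same strand, changed in the opposite direction to Platr3 in the knockout and in overexpression. Its libraries held 56.1 and 62.3 CPM in wild type, 41.3 and 41.6 in the knockout libraries, 74.6 and 70.8 in those of the mutant and 111 and 119.8 in those of overexpression. The log2 changes of Plcb4 were -0.51, 0.30 and 0.97 in that order, and all 3 passed. Marcks, a substrate of protein kinase C (r = 0.9951), Lefty1, a secreted inhibitor of Nodal signalling (0.9894), and Cks2 (0.9892) followed Platr3 most closely. Lefty1 changed by 0.79 in the knockout, -0.56 in the 3'UTR mutant and -1.51 in overexpression, and Cks2 by 0.10, -0.01 and -0.13.

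The altered lines were also compared with each other. In the knockout against the mutant, 3 of the 9 RNAs were higher (Platr3, Platr4, Platr20), 4 lower (Platr10, Platr16, Platr22, Platr27) and 2 did not pass, with 45.7% of all tested genes called, 24.4% higher and 21.3% lower. In overexpression against the mutant, 2 were higher (Platr4, Platr20), 6 lower and 1 did not pass (Platr27), with 52.1% of all tested genes called, 26.7% higher and 25.4% lower. In the knockout against overexpression, 5 were higher (Lncenc1, Platr3, Platr4, Platr10, Platr14), 1 lower (Platr27) and 3 did not pass, with 54.8% of all tested genes called, 27.5% higher and 27.2% lower. The largest of these differences was that of Platr3, 3.09-fold higher in the knockout than in overexpression (log2 difference 1.63, SE 0.204, adjusted p = 2.57e-06). Platr27 differed by -1.38 between the same lines (adjusted p = 1.72e-09) and by -1.23 between the knockout and the mutant (1.74e-08). Platr4 was 2.10-fold higher in the knockout than in the mutant (1.07, adjusted p = 3.43e-08). The knockout and overexpression did not differ beyond their spread for Platr16 (-0.06, 95% interval -0.448 to 0.331), Platr20 (0.11, interval -0.168 to 0.389) and Platr22 (-0.18, interval -0.386 to 0.0183). The Platr22 difference passed without knockout replicate 1 (-0.31, adjusted p = 0.0381).

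Several calls between lines depended on single libraries or on the tool. Platr16 was called lower in overexpression than in the mutant (-0.49, adjusted p = 0.0279), a call lost under 6 alternatives, among them the fits without either mutant library (0.0664 and 0.083) or either overexpression library (0.0568 and 0.155). Platr16 in the knockout against the mutant (-0.54, adjusted p = 0.0187) was lost with DESeq2 (0.086) and without knockout replicate 2 (0.166) or mutant replicate 2 (0.0602). Platr4 in the knockout against overexpression (0.26, adjusted p = 0.014) was lost under 4 alternatives, including the fits without knockout replicate 2 (0.0857) and without overexpression replicate 2 (0.121). Platr3 in overexpression against the mutant (-0.76, adjusted p = 0.00823) was lost with DESeq2 (0.0587) and without overexpression replicate 1 (0.0712). Platr20 in overexpression against the mutant (0.54, adjusted p = 0.00336) was lost without overexpression replicate 2 (0.0593). Platr14 in the same comparison (-0.31, adjusted p = 0.00752) was lost without mutant replicate 2 (0.0939), and in the knockout against the mutant its difference of 0.17 passed without that library alone (0.26, adjusted p = 0.0471).

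Across the 8 libraries the 9 RNAs did not follow a single course. Over the 36 pairs the Pearson correlation of log2 CPM ran from -0.851 to 0.943 with a median of 0.456, as a description of 8 libraries that share 4 groups. The highest were those of Platr16 with Platr22 (0.943), Lncenc1 with Platr14 (0.94) and Platr4 with Platr20 (0.932). The lowest was that of Platr3 with Platr27 (-0.851). The 3 highest pairs each join genes of different chromosomes, while Platr3 and Platr27 both lie on chromosome 2.

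The surroundings of each RNA were read over all tested genes within 2 Mb. Genome-wide, 27.7% of tested genes were called higher and 27.2% lower in overexpression, and 20.9% were called lower in the knockout. Around Platr27 in overexpression, 49 of 78 genes were higher and 1 was lower, with a median log2 change of 0.47, so the rise of Platr27 (0.30) was smaller than that median. Platr14 and Platr3 lie on the same chromosome, and the genes around them had medians of 0.39 (20 of 32 higher) and 0.40 (5 of 12 higher) in overexpression, while Platr14 itself changed by -0.82 and Platr3 by -1.04. Around Platr16 the median was -0.56 in the knockout and -0.65 in overexpression, with 25 of 54 genes lower in each, near the changes of Platr16 itself (-0.72 and -0.66). Around Platr10, 4 of 7 genes were lower in the knockout (median -0.80) and 4 of 7 in overexpression (-0.39). Around Lncenc1 the medians lay at -0.03, 0.02 and -0.11 over 35 genes in the knockout, the mutant and overexpression, against -1.44, -1.47 and -2.13 for Lncenc1. Around Platr4, Platr20 and Platr22 the medians ran from -0.125 to 0.195 in all 3 lines. The part of the surrounding region in the change of any of the RNAs was not tested.

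**Figure D4:**
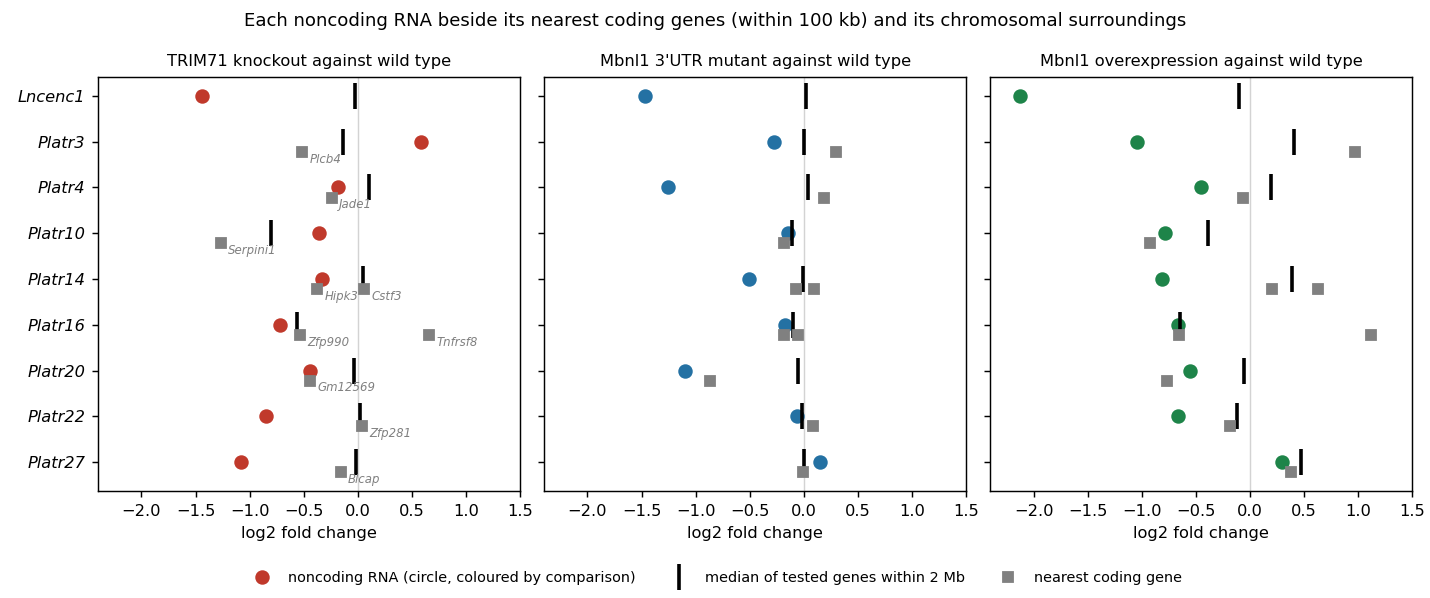
Log2 fold change against wild type (horizontal axis) of each noncoding RNA (circles), its nearest protein-coding genes within 100 kb (grey squares, named in the left panel) and the median of tested genes within 2 Mb (black ticks), in 1 panel per line. Lncenc1 lies far from the tick of its surroundings in all 3 panels, while Platr16 lies close to it, and Plcb4 lies on the other side of 0 from Platr3 in the left and right panels.

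The 22 other Platr genes served as a comparison within the family, and 19 of them passed the filter. In the knockout 4 of the 19 were higher, 6 lower and 9 did not pass, in the mutant 0, 1 and 18, and in overexpression 2, 3 and 14. The shares called over all tested genes were 45.1%, 16% and 54.8%. The median log2 changes of the 19 were -0.05, 0.06 and -0.15, against -0.44, -0.28 and -0.67 for the 9 RNAs described here. The 9 were chosen with earlier results of these data known, so this is a description and not an independent comparison. Several of the 19 also had few reads, such as Platr32 and Platr31 at means of 0.08 and 0.13 CPM over the libraries. With DESeq2 the knockout count of the 19 was 6, with genes under 1 CPM left out it was 4, and without knockout replicate 2 it was 6, in place of 10. The single call in the mutant, Platr7 (-0.29, adjusted p = 0.0418), was lost with DESeq2 (0.135), where 0 of the 19 were called, and under 7 other alternatives, with adjusted p up to 0.243 without mutant replicate 1; without mutant replicate 2 the list's count was 2. Of the 4 most abundant, Platr17 was lower in the knockout (-0.31) and in overexpression (-0.56), and Platr7 was lower in overexpression (-0.50). Platr21 passed in no line, and Platr12 passed in the knockout alone (-0.31, adjusted p = 0.0499), a call lost under 10 alternatives.

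The widest changes in the family were increases outside the 9, in genes singled out after their values were seen. Platr15 had 4 and 7 counts in wild type, 286 and 320 in the knockout libraries, 2 and 14 in those of the mutant and 147 and 160 in those of overexpression, with log2 changes of 5.63 in the knockout and 4.58 in overexpression. Platr13 rose from 19 and 16 counts in wild type to 180 and 186 in the knockout (3.25, adjusted p = 1.88e-09) and had 11 to 15 counts in the other lines. Platr6 rose in the knockout (1.55, adjusted p = 5.4e-06) and Platr26 in overexpression (2.17, adjusted p = 2.59e-09). The widest fall outside the 9 was that of Platr5, at -1.74 in the knockout.

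**Figure D5:**
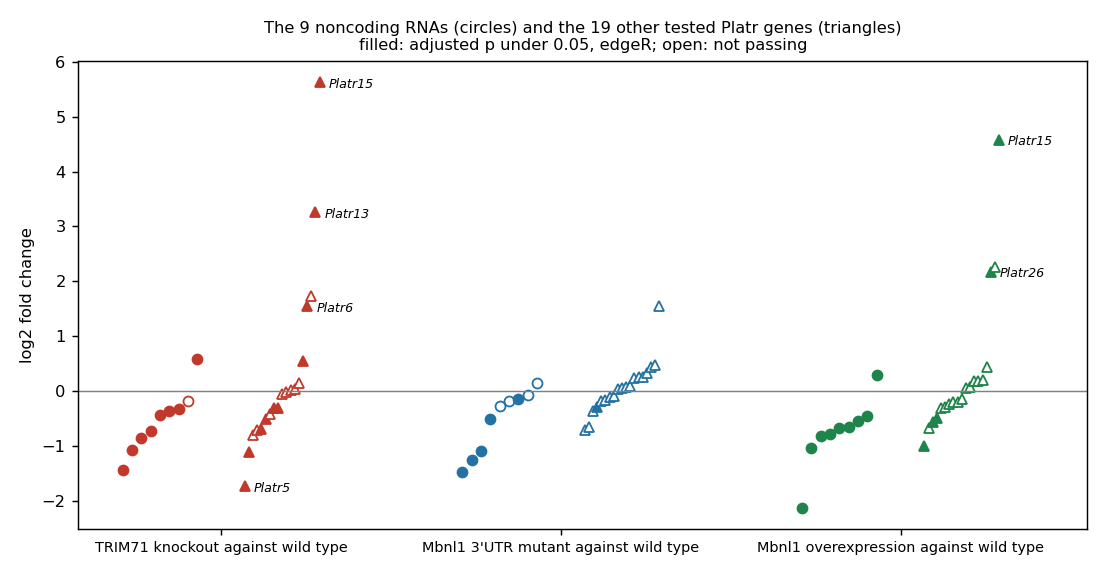
Log2 fold change against wild type (vertical axis) of the 9 noncoding RNAs (circles) and the 19 other tested Platr genes (triangles), sorted within each line, filled where the adjusted p was under 0.05. In overexpression 8 of the 9 circles are filled below 0, while 3 of the 19 triangles are, and Platr15 lies highest in the knockout, at 5.63.

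Of 24 other noncoding RNAs studied in stem cells, 18 were listed and tested. In the knockout, the mutant and overexpression 24.2%, 8.32% and 27.7% of all tested genes were called higher and 20.9%, 7.69% and 27.2% lower. The 18 RNAs were called lower more often than higher. The knockout had 0 higher and 10 lower, the mutant 2 and 4, and overexpression 2 and 10, with medians of -0.26, -0.12 and -0.35. Of the 4 most abundant, the nuclear RNA Malat1 passed in no line (-0.21, 0 and -0.11), and Gas5 passed in overexpression alone (-0.14), a call lost with library size scaling (adjusted p = 0.132) and without wild-type replicate 2 (0.171) or overexpression replicate 2 (0.0768). Rian, from the imprinted Dlk1-Dio3 region, was lower by 0.22 in the knockout, 0.19 in the 3'UTR mutant and 2.90 in overexpression on the log2 scale, and Neat1 was lower in overexpression (-0.47). Meg3 and Mirg moved like Rian in overexpression (-2.95 and -2.94), so the 10 lower calls there are not all independent of each other. The mutant call of Rian was lost without wild-type replicate 2 (adjusted p = 0.124) and that of Neat1 without overexpression replicate 1 (0.0895).

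Messenger RNAs of the pluripotency network differed by list: more naive factors were called higher than lower, core factors were called in both directions in the knockout and overexpression, and more formative and primed genes were called lower than higher. Over all tested genes, 24.2%, 8.32% and 27.7% were called higher in the knockout, the mutant and overexpression, and 20.9%, 7.69% and 27.2% lower. Of 16 naive pluripotency factors the knockout had 13 higher and 1 lower, the mutant 11 and 0, and overexpression 10 and 4. Their median log2 changes were 0.34, 0.17 and 0.19. Nanog was higher in all 3 lines (0.94, 0.11 and 0.27), as were Esrrb (0.33, 0.16 and 0.21) and Zfp42 (0.32, 0.15 and 0.24). Tfcp2l1 was higher in the mutant (0.20) and in overexpression (0.12), and its change of -0.09 in the knockout did not pass. The mutant call of Nanog was lost under 7 alternatives, with adjusted p up to 0.198 without wild-type replicate 2. That of Zfp42 was lost without the same library (0.0567), and the overexpression call of Tfcp2l1 without it (0.187) or overexpression replicate 2 (0.225). The knockout change of Tfcp2l1 passed under 6 alternatives, with adjusted p of 0.0324 without wild-type replicate 2. Of 8 core factors the knockout had 2 higher and 3 lower, the mutant 3 and 0, and overexpression 3 and 3. Pou5f1, on which Platr10 is reported to act, passed in no line (0.01, 0.10 and -0.03). Its mutant change passed under 4 alternatives, among them DESeq2 (adjusted p = 0.0135). An action of Platr10 on Pou5f1 was not tested. The mutant count of core factors was 1 with library size scaling alone, without either wild-type library or without either knockout library, and 5 without mutant replicate 2. Of 10 formative and primed genes the knockout had 8 lower, the mutant 5 and overexpression 9, with 0, 1 and 0 higher and medians of -0.95, -0.33 and -0.61. Dnmt3b and Otx2 were lower in all 3 lines, by -0.38, -0.24 and -0.28 and by -0.89, -0.64 and -0.75.

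Of 10 genes reported as partners or targets of the RNAs, the knockout had 3 higher, the mutant 3 and overexpression 2, and 1, Zfp281, was lower in the last. In these lines 45.1%, 16% and 54.8% of all tested genes were called. Ptbp1 and Hnrnpk, the reported partners of Lncenc1, passed in no line, with changes of 0.06, 0.05 and 0.03 and of 0.08, 0.05 and -0.04. The knockout change of Hnrnpk passed in the fit of the 2 groups alone (adjusted p = 0.0298) and without mutant replicate 1 (0.0326) or 2 (0.0327). Ddx5, a reported partner of Platr22, also passed in no line (-0.07, 0.07 and -0.04). Tead4 and Wdr5, named after their values were seen because the counts are small, were higher in all 3 lines, by 0.47, 0.37 and 0.34 and by 0.12, 0.17 and 0.27. The knockout call of Wdr5 was lost without wild-type replicate 2 (0.0862) or knockout replicate 1 (0.0551). Sox2 was higher in the knockout (0.47) and the mutant (0.23). Its mutant call was lost with library size scaling (adjusted p = 0.132), without wild-type replicate 1 (0.243) or 2 (0.105), without either knockout library (0.0567 and 0.0577) and without mutant replicate 1 (0.11). The mutant count of this list was 5 with DESeq2, with median-ratio factors and with no filter on low counts, and its knockout count was 5 without either mutant library and in the fit of the 2 groups alone.

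Glycolysis genes, on which Lncenc1 is reported to act, were called in both directions. Of 20 such genes the knockout had 6 higher and 7 lower, the mutant 5 and 2, and overexpression 7 and 8, with medians of -0.03, 0.03 and 0.02. Of the 4 most abundant, Pkm, Gapdh and Ldha were lower in overexpression (-0.14, -0.15 and -0.33), Aldoa was higher there (0.18), and Ldha was also lower in the knockout (-0.28). None of these 4 passed in the mutant with all 8 libraries, and without mutant replicate 2 Aldoa changed by 0.13 there. A link of the glycolysis genes to the level of Lncenc1 was not tested. The overexpression calls of Pkm and Gapdh were lost with library size scaling (adjusted p = 0.0538 and 0.0622) and without wild-type replicate 1 (0.083 and 0.146), that of Pkm without overexpression replicate 1 (0.0509) and that of Gapdh without overexpression replicate 2 (0.0634). The knockout change of Pkm passed in the fit of the 2 groups alone (0.039) and without mutant replicate 1 (0.0409) or 2 (0.0398). Without wild-type replicate 1 or without mutant replicate 1 4 genes of this list were called higher and 0 lower in the mutant, in place of 5 and 2.

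The promoter sequences of RefSeq (GRCm38.p6), 250 bases before to 50 after the start, held 6 of the 9 genes; Platr4, Platr16 and Platr27 were not matched. Each was searched on both strands for 7 short motifs, and the share over all 32851 promoters of this length is given beside each. The octamer ATGCAAAT (1.74% of promoters), the ESRRB motif AAGGTCA (4.72%), the KLF motifs CCACGCCC (5.33%) and CCCCACCC (9.99%) and the TATA motif TATAAA (13.6%) occurred in 0 of the 6. The SOX-type motif ACAAAG occurred in 3 of the 6, Platr3, Platr14 and Platr22 (18.7% of promoters), and ATTGTT in 2, Platr10 and Platr14 (10.7%). The RefSeq promoter of Platr14 lies inside its GENCODE gene. No motif contains another on either strand. Lncenc1 and Platr20 held none of the 7.

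MBNL proteins bind RNA at tetramers that read, in DNA letters, TGCT or TGCC and likewise CGCT or CGCC. These were counted in the longest GENCODE M21 transcript of each RNA, a measure added with the expression values known. They occurred at 7.28 per kb in Platr3, 7.87 in Platr4, 10.5 in Platr22, 11.7 in Platr14, 12.7 in Lncenc1, 12.8 in Platr16, 14.3 in Platr27, 14.9 in Platr20 and 16.6 in Platr10. The median of the 9 was 12.7, against 13.6 for the transcripts of 715 other noncoding genes (quartiles 10.8 and 16.7). The 30 bases with the most tetramers are printed for Lncenc1 (transcript positions 2540 to 2569), Platr10 (925 to 954) and Platr20 (513 to 542), with the tetramers in capitals.
Lncenc1: agattTGCCTGCCtcTGCCtctcaagTGCT
Platr10: gcatcatgtcTGCCttcaTGCTGCCaTGCT
Platr20: ggagcTGCTGCCaaagagccaaatctCGCT
A match of letters is a description of the sequence and not a measured site.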

How the data were processed

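Raw counts of reads per gene were deposited for 8 RNA-seq libraries, 1 file each. The authors aligned reads to mm10 and used STAR 2.5.0, per the submitters' processing notes; an annotation release or strand setting for counting was not given in the sources used here. Of 43346 genes listed, 42462 matched a symbol, 27979 had a count and 18055 passed edgeR's filterByExpr (minimum count 10, total 15).

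The 9 RNAs and the gene lists were chosen with earlier results of these data known. All 4 groups were fitted together with edgeR 4.0.16 (R 4.3.3, limma 3.58.1) by the quasi-likelihood test, with TMM factors and 4 residual degrees of freedom, and 6 contrasts were adjusted by Benjamini-Hochberg over all tested genes. The biological coefficient of variation was 4.172%. With 2 libraries a group, an exact permutation test cannot go below p = 0.333. CPM values are TMM-normalized, and correlations used log2 CPM with a prior count of 2. The code was tested on simulated data. Alternatives were median-ratio factors, library size only, no or a stricter filter, DESeq2 1.42.0, the 2 groups alone, a replicate block and each library left out.

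Named genes were the 9 RNAs, the nearest coding gene on each side within 100 kb, the 3 candidate genes most like each RNA in log2 CPM and the 4 most abundant genes of each list. Others are said to be chosen with their values known. Positions and exon lengths are from GENCODE M21 and promoters from RefSeq. Figures were drawn with matplotlib 3.10.9. A depth of 3 counts corresponds to 0.0335 to 0.0398 CPM.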

Additional observations from a re-analysis of the deposited data

How the results depend on the processing

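The 54 log2 changes of the 9 RNAs (6 comparisons) were recomputed under 15 alternatives. Of 804 recomputed values 767 kept their side of the threshold, 34 were no longer past it and 3 came to pass it. Among values that passed in the main fit, 0 changed sign. Signs did change for values that had not passed. Platr16 ranged up to 0.01 in the mutant against wild type (main fit -0.18). In the knockout against overexpression Platr16 reached 0.07 (main fit -0.06) and Platr20 reached -0.02 (main fit 0.11). For 39 of the 54 the side of the threshold held under all alternatives that gave a value. Platr3 has no value where genes under a mean of 1 CPM were left out. Over 138 other named genes against wild type, 5873 of 6147 values kept their side of the threshold, 185 were lost and 89 were gained. Among those that passed in the main fit 0 changed sign, and changes of sign in the rest were not counted. The number of RNAs called, with each library left out in turn, ran from 6 to 8 in the knockout, 4 to 5 in the mutant and 8 to 9 in overexpression against wild type, 6 to 7 for the knockout and 6 to 8 for overexpression against the mutant, and 5 to 7 for the knockout against overexpression.

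Over all genes, the mutant count against wild type was 2891, and 1883 to 3333 with each library left out, the lowest without wild-type replicate 1; the cause was not tested. Replicate numbers did not pair the libraries (correlations of deviations from -0.0343 to 0.06). With the replicate block the counts of RNAs called were 8, 5 and 9 against wild type, and the block changed none of their 54 calls. Other scalings moved the median of all genes by at most 0.0544 on the log2 scale. Depth limits Platr3 and Platr16 most, with counts of 31 to 135 per library.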
